A study of Mus musculus with 10 samples.

Results

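The genes described here encode receptors and bridging molecules of efferocytosis, the engulfment of dying cells by macrophages. They are 10 genes chosen by symbol, namely Mertk, Axl, Tyro3, Gas6, Pros1, Timd4, Stab1, Mfge8, Cd36 and Itgav. All 10 were found among the 46957 loci of the deposited tables, each at a locus that lists 1 symbol, and all 10 passed the filter on low counts, as did 12501 loci in all. Tumour-associated macrophages were sorted from tumours of 4T1, a mouse mammary carcinoma line, of which 100000 cells had been placed in the mammary fat pad (host strain BALB/cJ). The vehicle group (5 samples) came from mice given PBS. The JHU083 group (5 samples) came from mice given 1 mg/kg of JHU083, a prodrug of the glutamine antagonist 6-diazo-5-oxo-L-norleucine, from day 7 to day 13. In both groups tumours were taken on day 14 and live cells positive for CD45, CD11b and F4/80 and negative for CD8, Ly6C and Ly6G were sorted. The comparison asks how the glutamine antagonist changes the transcripts of these cells. The labels do not give the age or sex of the mice, nor whether each sample came from a separate mouse, so p-values measure only the spread between these samples.

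Dying cells expose the lipid phosphatidylserine on their surface, and macrophages bind it either directly or through a soluble bridge. The receptor tyrosine kinases TYRO3, AXL and MERTK recognise it through GAS6 and protein S, 2 vitamin K dependent proteins, and signal to promote engulfment and restrain inflammatory signalling. TIM-4 and stabilin-1 bind phosphatidylserine directly, MFG-E8 links it to integrins that contain the alpha V chain, and CD36 is a scavenger receptor for oxidised lipids that works with alpha V integrin and thrombospondin. MERTK is a widely used marker of mature tissue macrophages.

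Mertk, Gas6, Pros1 and Cd36 rose in JHU083 and kept their call in all 24 alternative analyses, and the promoters of these 4 genes are shown for that reason. Each sequence holds the 250 bases before the RefSeq start, read 5′ to 3′ on the strand of the gene in build GRCm38.p6. They lie at chr2:128698665-128698914 on the plus strand for Mertk, chr8:13494536-13494785 on the minus strand for Gas6, chr16:62854057-62854306 on the plus strand for Pros1 and chr5:17835897-17836146 on the minus strand for Cd36. None of the 4 overlaps an exon of GENCODE M21, and the Cd36 stretch lies within the annotated Cd36 gene. Capitals mark matches on either strand to any of 9 motifs described after the sequences.
Mertk: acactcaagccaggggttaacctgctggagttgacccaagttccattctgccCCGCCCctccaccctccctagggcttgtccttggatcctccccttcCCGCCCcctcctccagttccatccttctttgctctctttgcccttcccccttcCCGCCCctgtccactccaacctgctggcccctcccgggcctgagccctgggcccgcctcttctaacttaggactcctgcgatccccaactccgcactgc
Gas6: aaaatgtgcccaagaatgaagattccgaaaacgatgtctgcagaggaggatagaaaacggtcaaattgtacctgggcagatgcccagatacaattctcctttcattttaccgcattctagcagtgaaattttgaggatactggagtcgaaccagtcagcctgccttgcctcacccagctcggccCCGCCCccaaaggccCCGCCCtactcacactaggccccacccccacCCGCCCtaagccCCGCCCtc
Pros1: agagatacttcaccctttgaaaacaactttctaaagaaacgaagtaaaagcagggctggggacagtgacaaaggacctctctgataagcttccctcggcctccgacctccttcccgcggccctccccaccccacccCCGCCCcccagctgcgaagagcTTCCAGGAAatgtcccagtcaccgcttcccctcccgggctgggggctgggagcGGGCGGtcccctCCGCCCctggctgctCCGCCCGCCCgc
Cd36: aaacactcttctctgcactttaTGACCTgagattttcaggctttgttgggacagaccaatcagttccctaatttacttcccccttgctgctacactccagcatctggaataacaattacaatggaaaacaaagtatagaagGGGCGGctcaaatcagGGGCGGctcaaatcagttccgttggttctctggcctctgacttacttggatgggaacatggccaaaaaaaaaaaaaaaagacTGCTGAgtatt

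The motifs were searched on both strands. The GC box is GGGCGG, the core bound by nuclear receptors was taken as AGGTCA and the core bound by MAF factors as TGCTGA. For PU.1 the letters were GAGGAA, for STAT proteins TTCNNNGAA and for AP-1 TGANTCA. The core of the interferon-stimulated response element was taken as GAAA followed by any 2 bases and a second GAAA, the palindromic E-box as CACGTG and the TATA box as TATAAA. The GC box was the motif the 4 promoters shared, with 3 matches in Mertk, 4 in Gas6, 5 in Pros1 and 2 in Cd36. Some of the Pros1 matches overlap each other. Over the 10 genes the GC box was present in 7, and it was present in 32.9% of 27025 RefSeq promoters of the same length. In Pros1 the letters TTCCAGGAA match the STAT pattern, which 7.18% of all promoters hold. In Cd36 the nuclear receptor core matches on the opposite strand, as TGACCT (13.8% of all promoters), and the MAF core matches on the strand shown (15.8%). The AP-1 site, the interferon core, the E-box and the TATA box had no match in any of the 10 promoters and were present in 6.87%, 3.04%, 6.05% and 13.0% of all promoters. GC content was 63.6% for Mertk, 54.8% for Gas6, 64.4% for Pros1 and 43.2% for Cd36. These matches describe letters in the windows, and binding was not measured.

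The libraries held 11147870 to 14575932 fragments in vehicle and 13638381 to 15740701 in JHU083. A count of 3 fragments, the limit that a count of 0 allows, corresponds to at most 0.269 CPM (counts scaled to a library of fixed size) in vehicle and 0.220 CPM in JHU083, for counting error only. Mitochondrial transcripts made up 1.53% to 2.09% of fragments in vehicle and 2.14% to 2.44% in JHU083, with no overlap. Markers named by the sort and the tissue were read beside the 10 genes. The summed level of 7 macrophage markers, most of it Lyz2, was 10318 to 12232 CPM in vehicle and 13689 to 18796 CPM in JHU083, far above the sums of the other cell types and higher in every JHU083 sample. Within that list Adgre1, Csf1r and Lyz2 rose (log2 fold changes of 0.63, 0.51 and 0.58), Aif1 fell (-0.31), and Cd68, Fcgr1 and Itgam were not called (0.16, -0.21 and 0.03). The call for Aif1 was kept only without vehicle replicate 2 or 3 or JHU083 replicate 1 or 3 among the 10 fits that left out 1 sample, and Fcgr1 passed as lower without JHU083 replicate 1 (-0.28), with library size scaling (-0.29) and in limma-voom with sample weights (-0.27). In the samples with the ribosomal loci Rn18s-rs5 and Gm42418 above 0, described further on, Lyz2 was not called (0.30, edgeR adjusted p = 0.164). Aif1 was not called in those at 0 (-0.09). In contrast, 9 of 9 tested markers of mammary epithelium fell, and their sum went from 301 to 655 CPM in vehicle to 104 to 221 CPM in JHU083, with no overlap. Fibroblast markers summed to 103 to 226 CPM in vehicle and 25.9 to 115 CPM in JHU083, with 5 of 7 tested markers lower. Endothelial markers summed to 126 to 214 and 37.5 to 89.0 CPM, most of it Pecam1, which fell from a mean of 151 to 52.5 CPM. Pecam1 was the 1 called of 4 tested endothelial markers, while Cdh5 (log2 fold change -0.49), Kdr (-0.15) and Vwf (-0.01) were not called. Tek, Emcn and Cldn5 were too low to be tested. Of 3 tested neutrophil markers S100a8 (-1.40) and S100a9 (-2.18) fell and Retnlg (0.45) was not called, and the list summed to 33.5 to 46.0 and 12.8 to 61.2 CPM. Dendritic cell markers summed to 12.0 to 17.0 and 15.5 to 31.4 CPM, with Cd209a (2.09) the 1 called of 6 tested. In the T and NK cell list Cd4 rose from a mean of 14.7 to 31.8 CPM, Klrb1c (-0.38, at a locus that also lists Gm44511 and Klrb1b) was not called by edgeR but was called lower by DESeq2 and limma-voom, and Cd3e, Cd3d, Cd8a, Trac and Ncr1 were too low to be tested. Of 3 tested eosinophil markers Siglecf (0.89) rose, while Prg2 (0.81) and Ccr3 (0.29) were not called. The eosinophil list summed to 3.68 to 10.6 CPM in vehicle and 6.64 to 17.4 CPM in JHU083. B cell markers summed to at most 1.57 CPM. None of these lists had a marker at 0 in every sample. In bulk RNA, fewer cells of a type and less RNA per cell cannot be told apart.

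Of the 10 genes, 6 were higher in JHU083 and 1 was lower at an adjusted p under 0.05 (edgeR quasi-likelihood F-test, Benjamini-Hochberg over all tested loci). Over all 12501 tested loci 18.4% were higher and 18.3% were lower. Mertk, Axl, Gas6, Pros1, Stab1 and Cd36 rose, Tyro3 fell, and Timd4, Mfge8 and Itgav were not called. For Mertk, Gas6, Pros1, Stab1 and Cd36 every JHU083 sample lay above every vehicle sample, a pattern found at 11.2% of tested loci. For Tyro3 every JHU083 sample lay below every vehicle sample, as at 11.1% of tested loci. The median log2 fold change of the 10 genes was 0.38, beside 0.01 over all tested loci. Scaling by library size alone changed the balance over all loci to 1564 higher and 3141 lower, in place of 2296 and 2293, and left 5 of the 10 genes higher and 1 lower.

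**Figure D1:**
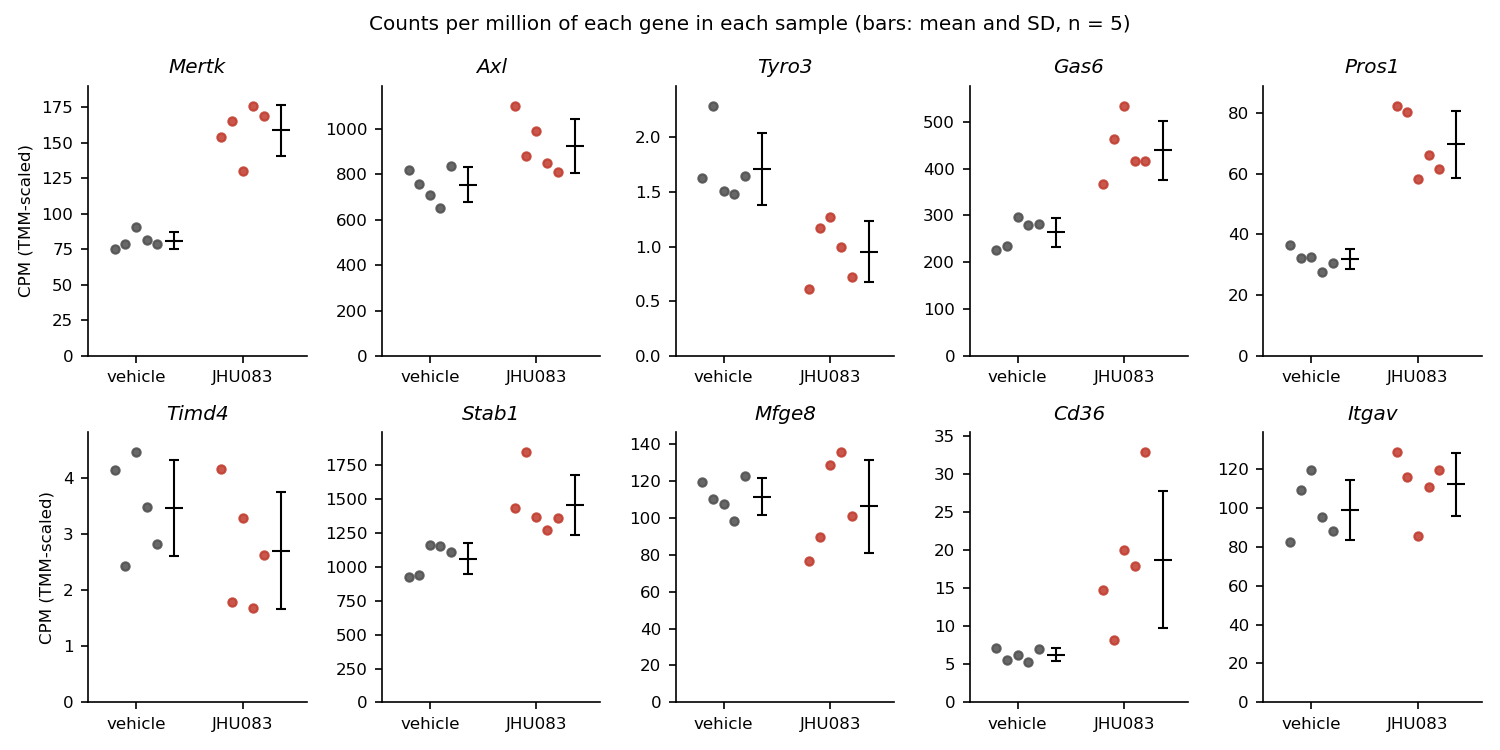
CPM on TMM-scaled library sizes for each of the 10 genes, with 1 point per sample and the mean and SD of each group (n = 5) as bars; each panel has its own axis from 0. Mertk, Gas6, Pros1, Stab1 and Cd36 are higher in every JHU083 sample than in any vehicle sample, Tyro3 is lower in every one, and the groups overlap for Axl, Timd4, Mfge8 and Itgav.

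Among the receptor kinases, Mertk (locus XLOC_019702, chr2:128698956-128802894) nearly doubled. In vehicle replicates 1 to 5 it had 75.2, 78.5, 91.0, 81.9 and 78.4 CPM. In JHU083 replicates 1 to 5 it had 154, 166, 130.1, 176 and 169 CPM. The lowest JHU083 sample, replicate 3, was still above the highest vehicle sample, replicate 3. The means were 81.0 ± 6.08 and 159 ± 17.9 CPM (SD, n = 5), and the fitted log2 fold change was 0.97 ± 0.09 (SE, edgeR adjusted p = 4.81e-06). By p-value it ranked 61 among all tested loci.

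Axl (XLOC_036490, chr7:25757273-25788705) encodes the receptor of the family that binds GAS6 most tightly and is often raised by inflammatory stimuli. Vehicle samples had 818, 757, 711, 654 and 836 CPM, and JHU083 samples had 1101, 881, 992, 849 and 809 CPM. The groups overlapped, since JHU083 replicate 5 lay below vehicle replicates 1 and 5. Its means of 755 ± 75.4 and 927 ± 119 CPM (SD, n = 5) gave a log2 fold change of 0.30 ± 0.10 (SE, edgeR adjusted p = 0.0326). This call was lost when vehicle replicate 2 (0.29), vehicle replicate 3 (0.27), vehicle replicate 4 (0.24) or JHU083 replicate 1 (0.23) was left out. It was also lost with library size scaling (0.22, edgeR adjusted p = 0.0949).

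Tyro3 (XLOC_019615, chr2:119797733-119818104), the family member best known from the nervous system, was close to the limit of detection. It had 1.63, 2.29, 1.51, 1.48 and 1.64 CPM in vehicle and 0.614, 1.17, 1.27, 0.994 and 0.720 CPM in JHU083. All 5 JHU083 samples were below the lowest vehicle sample, but these values rest on 17 to 30 fragments per vehicle sample and 9 to 17 per JHU083 sample. The fitted change was -0.85 ± 0.27 on the log2 scale (SE, edgeR adjusted p = 0.0237). It missed the threshold without vehicle replicate 2 (-0.72), without JHU083 replicate 1 (-0.72) or replicate 5 (-0.76), and when no filter on low counts was used (-0.85, edgeR adjusted p = 0.0742). The epithelial marker sum was also lower in every JHU083 sample, and its part in the Tyro3 difference was not tested.

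Both ligands of these kinases rose. Gas6 (XLOC_039651, chr8:13465374-13494490) had 227, 234, 297, 279 and 281 CPM in vehicle and 368, 464, 534, 416 and 416 CPM in JHU083. Its lowest JHU083 sample, replicate 1, was above the highest vehicle sample, replicate 3. The means were 264 ± 31.1 and 439 ± 62.7 CPM (SD, n = 5), with a log2 fold change of 0.74 ± 0.11 (SE, edgeR adjusted p = 0.000137).

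Pros1 (XLOC_014147, chr16:62854307-62929346) encodes protein S, an anticoagulant that also serves as ligand of MERTK and TYRO3. Its level was 36.4, 32.3, 32.4, 27.6 and 30.7 CPM in vehicle and 82.2, 80.3, 58.2, 66.1 and 61.6 CPM in JHU083. JHU083 replicates 1 and 2 were the highest, and no JHU083 sample came near the vehicle range. From 31.9 ± 3.18 to 69.7 ± 10.99 CPM (SD, n = 5), the log2 fold change was 1.13 ± 0.11 (SE, edgeR adjusted p = 8.51e-06). Only 204 tested loci had a larger increase. Gas6 and Pros1 are also made by fibroblasts and endothelium, where 5 of 7 and 1 of 4 tested markers fell and none rose, and the part of these cells in the results was not tested.

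Of the receptors that bind phosphatidylserine directly, Stab1 rose and Timd4 was not called, and the difference between them was not tested. Stab1 (XLOC_011884, chr14:31139013-31168641) was among the most abundant of the 10 genes, with 927, 944, 1162, 1157 and 1110.4 CPM in vehicle and 1438, 1844, 1371, 1275 and 1361 CPM in JHU083. JHU083 replicate 2 was the highest, and the groups did not overlap. The means were 1060.1 ± 116 and 1458 ± 224 CPM (SD, n = 5), and the log2 fold change was 0.46 ± 0.11 (SE, edgeR adjusted p = 0.00602). Stab1 shares exonic bases with Nt5dc2 on the opposite strand, which had at most 841 fragments in a sample while Stab1 had at least 12386. The kit is not labelled as marking strand, so fragments from the shared stretch cannot be assigned to either gene.

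Timd4 (XLOC_005200, chr11:46810800-46844332), a marker of long-lived resident macrophages in several tissues, was low. It ranged from 2.44 to 4.45 CPM in vehicle and from 1.68 to 4.16 CPM in JHU083, on 22 to 61 fragments per sample. The groups overlapped, and the log2 fold change of -0.36 ± 0.27 (SE, edgeR adjusted p = 0.313) was not called.

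The integrin bridge showed no called change. Mfge8 (XLOC_037407, chr7:79133768-79149060) averaged 111 ± 9.78 CPM in the vehicle group against 106 ± 25.1 in the JHU083 group (SD, n = 5), with a log2 fold change of -0.07 ± 0.14 (SE, edgeR adjusted p = 0.707). Its JHU083 samples were spread from 76.5 to 135 CPM around a vehicle range of 98.1 to 122.5 CPM. Itgav (XLOC_019251, chr2:83724397-83806916), the alpha V chain, ranged from 82.2 to 120 CPM in vehicle and from 85.7 to 128 CPM in JHU083. Its log2 fold change was 0.18 ± 0.12 (SE, edgeR adjusted p = 0.248). Without JHU083 replicate 3, the lowest of that group, it was 0.26 and passed (edgeR adjusted p = 0.0442).

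Cd36 (XLOC_029357, chr5:17781690-17888801) had the largest fold change of the 10 genes and the widest spread in JHU083. Vehicle samples lay close together at 7.13, 5.56, 6.26, 5.30 and 7.04 CPM. JHU083 samples had 14.8, 8.23, 20.1, 17.9 and 32.8 CPM, so replicate 5 was about 4 times replicate 2, and replicate 2 was just above the vehicle range. The coefficient of variation was 13.3% in vehicle and 48.2% in JHU083. The means were 6.26 ± 0.834 and 18.8 ± 9.03 CPM (SD, n = 5), and the log2 fold change was 1.58 ± 0.28 (SE, edgeR adjusted p = 0.000635). Only 75 tested loci had a larger increase. CD36 is also abundant on adipocytes, microvascular endothelium and platelets. Adipocyte markers summed to at most 0.608 CPM in any sample, and of the endothelial markers Pecam1 fell and the other 3 tested were not called. Platelet and megakaryocyte markers overlapped (123 to 156 CPM in vehicle and 92.8 to 204 CPM in JHU083). Nearly all of that sum was Pf4 (log2 fold change 0.09, not called), while at means under 5 CPM Ppbp rose (0.70, not called by limma-voom) and Gp1bb, whose locus also lists Sept5, fell (-0.96). Within JHU083 the platelet sum was highest in replicates 3 and 5 and lowest in replicate 2, as were Pf4, Ppbp and Cd36 itself. The other platelet markers did not share this order. Itga2b (means of 0.669 CPM in vehicle and 0.754 CPM in JHU083) was lowest in JHU083 replicate 3. Gp1ba (0.161 and 0.438 CPM) had 0 in that sample. Gp9 (0.0303 and 0 CPM) had 0 in all of JHU083, and Gp1bb was lowest in replicate 5. The part of platelets in the Cd36 difference was not tested.

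**Figure D2:**
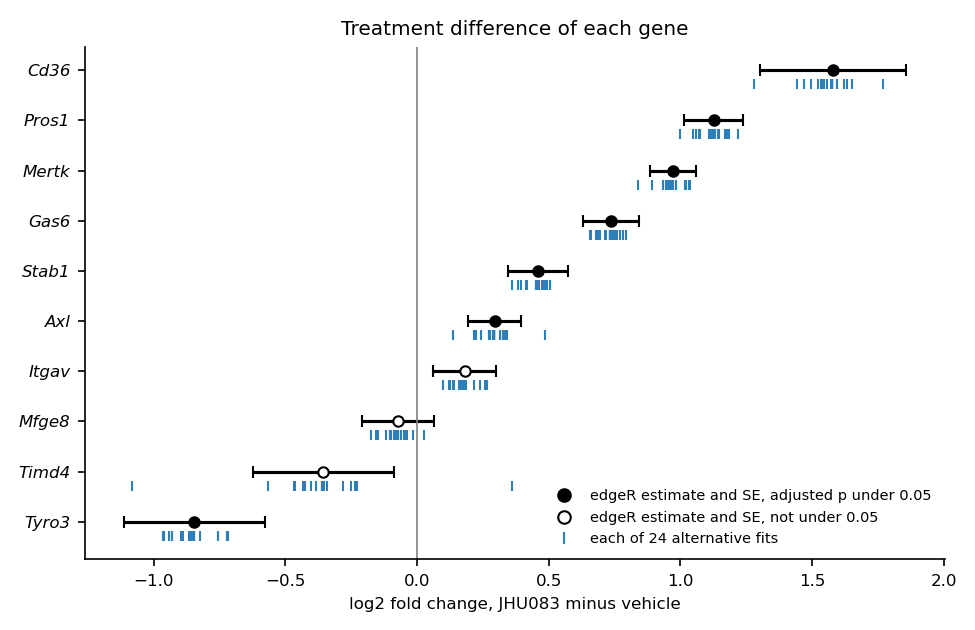
Log2 fold change of each of the 10 genes, JHU083 minus vehicle, with its standard error and with the range over the 24 alternative analyses. Cd36, Pros1, Mertk and Gas6 stay above 0 over their whole range and kept their call in all 24, while the range of Timd4 and of Mfge8 crosses 0.

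Samples differed in 1 further respect that the groups do not explain. The ribosomal loci Rn18s-rs5 and Gm42418 had no fragments listed in vehicle replicates 2, 4 and 5 and JHU083 replicates 1 and 3, and above 0 in the other 5 samples. Within the samples at 0 and within those above 0, the log2 fold changes were 0.84 and 1.02 for Mertk, 0.77 and 0.71 for Gas6, 1.22 and 1.00 for Pros1, and 1.54 and 1.54 for Cd36, and each passed the test in both sets. Stab1 had 0.39 and 0.51 (edgeR adjusted p = 0.0870 and 0.0581). Axl had 0.49 and 0.14 (edgeR adjusted p = 0.0535 and 0.449), and Tyro3 had -0.94 and -0.72 (edgeR adjusted p = 0.258 and 0.251). Mfge8 had -0.10 and -0.07, and Itgav had 0.14 and 0.18, none of them called. Timd4 took opposite signs, with 0.36 in the samples at 0 and -1.08 in those above 0, where it was called (edgeR adjusted p = 0.0304). Whether Timd4 differs between the sets was not tested. Each set holds only 5 samples, 2 or 3 per group.

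Levels can be compared between genes only per transcript length, and the deposited FPKM, fragment counts corrected for transcript length and depth, were used for this. In vehicle the order by median FPKM was Axl (184), Stab1 (183), Gas6 (109), Mfge8 (56.1), Itgav (29.1), Mertk (18.3), Pros1 (11.1), Cd36 (2.28), Timd4 (2.19) and Tyro3 (0.692). Axl and Stab1 overlapped, as did Cd36 and Timd4, while all other neighbours in this order were separate. In JHU083 the order was Stab1 (215), Axl (212), Gas6 (164), Mfge8 (50.4), Mertk (37.7), Itgav (31.7), Pros1 (25.6), Cd36 (7.43), Timd4 (2.20) and Tyro3 (0.314). There the only neighbours that did not overlap were Gas6 and Mfge8, Pros1 and Cd36, and Timd4 and Tyro3. Mertk stood below Itgav in every vehicle sample and overlapped with it in JHU083.

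The FPKM carry the authors' own length term, and for some genes this term differed between samples. The deposited count per FPKM of Stab1 ranged from 67.9 to 90.7 over the samples, 67.9 to 89.6 in vehicle and 86.0 to 90.7 in JHU083. On the FPKM scale the log2 ratio of the Stab1 group means was therefore 0.23 and the groups overlapped, in place of 0.46 without overlap on the count scale. The same quantity varied 2.39-fold for Tyro3, whose FPKM also overlapped between groups, 2.29-fold for Timd4, 1.47-fold for Itgav, 1.28-fold for Pros1 and 1.21-fold for Cd36. It varied at most 1.05-fold for Mertk, Axl, Gas6 and Mfge8.

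Ratios within a sample do not depend on the scaling of libraries. The ratio of Mertk to Axl in FPKM was 0.104 ± 0.0155 in vehicle and 0.166 ± 0.0351 in JHU083 (SD, n = 5), and its ranges of 0.0888 to 0.122 and 0.125 to 0.201 did not overlap. As a share of the summed FPKM of the 3 receptor kinases, Mertk went from 8.14% to 10.8% in vehicle to 11.1% to 16.7% in JHU083, while the Axl shares of 88.8% to 91.7% and 83.1% to 88.8% overlapped at their ends. Axl transcripts were the most abundant of the family in every sample. Gas6 exceeded Pros1 by 9.24 ± 1.86 times in vehicle and 6.80 ± 1.68 times in JHU083 (SD, n = 5), with overlapping ranges. The ratio of Mfge8 to Itgav was 1.87 ± 0.472 and 1.70 ± 0.666 (SD, n = 5), also overlapping. The last pair of ratios carries the variation in the length term given above for Pros1 and Itgav.

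**Figure D3:**
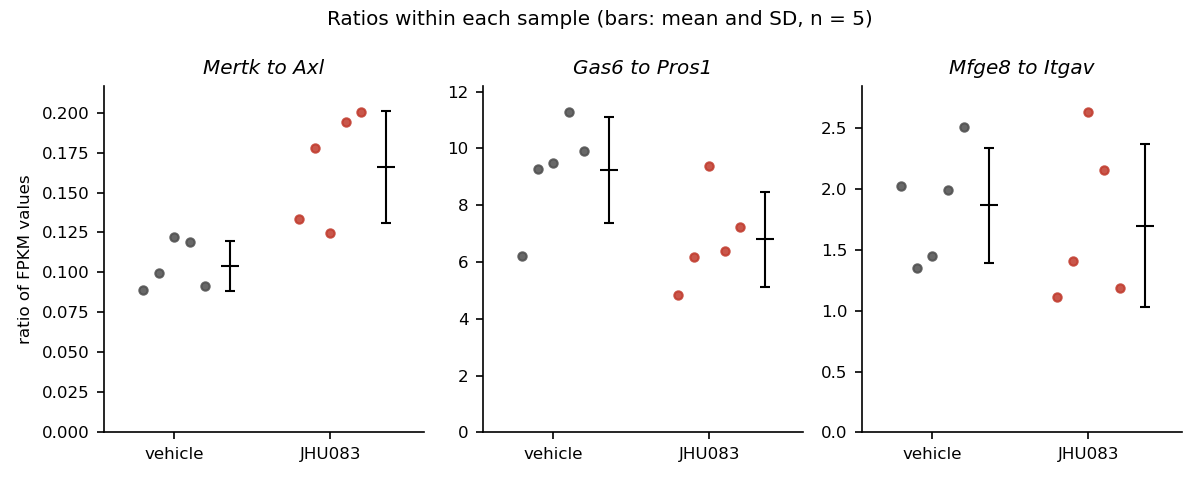
Ratio of FPKM within each sample for Mertk to Axl, Gas6 to Pros1 and Mfge8 to Itgav, with the mean and SD of each group (n = 5). The Mertk to Axl ratio is higher in every JHU083 sample than in any vehicle sample, and the other ratios overlap.

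The other genes of apoptotic cell clearance were read from 10 lists of 123 genes in all, of which 111 were tested. Of these 35 rose, 14 fell and 62 were not called, so 44.1% changed, beside 36.7% of all tested loci. Their median log2 fold change was 0.10. Within the samples with the ribosomal loci at 0, 19 of these 49 called genes passed with the same sign, and within the samples above 0, 28 did. All 49 kept their sign in both sets. Lrp1 and Sirpa, named among these lists, are examples of calls lost in both (0.42 and 0.46 for Lrp1, 0.21 and 0.25 for Sirpa).

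Among 14 tested further receptors for apoptotic cells, 5 rose and 2 fell, with a median log2 fold change of 0.16. Cd300lb and Cd300a, lipid-sensing members of the CD300 family, rose by 1.26 ± 0.10 and 0.80 ± 0.09, and Lrp1, a receptor for calreticulin-coated cells, by 0.47 ± 0.13 (SE, log2 scale). The scavenger receptors Msr1 (-0.43 ± 0.08) and Scarb1 (-0.42 ± 0.08) fell. Scavenger receptors therefore moved both ways, with Cd36 up and Msr1 down from 900.4 ± 52.2 to 669 ± 70.1 CPM (SD, n = 5). Of 10 tested bridging molecules and opsonins, 2 rose and 0 fell with edgeR, with a median of 0.05. In edgeR 1 was lower at an unadjusted p under 0.05, and DESeq2 and limma-voom each called 1 lower. The number called lower was 1 in 7 of the 24 alternative analyses, and 0 to 1 over the fits that left out 1 sample. Thbs1, the thrombospondin that links CD36 and alpha V integrin, rose from 90.7 ± 16.7 to 201 ± 64.65 CPM (SD, n = 5), or by 1.15 ± 0.18 on the log2 scale. Complement C3 rose by 0.74 ± 0.17.

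Activity of GAS6 and protein S requires gamma-carboxylation by a vitamin K dependent enzyme system. Its 3 genes were not called, with 0 at an unadjusted p under 0.05 in edgeR and 0 calls by DESeq2 and limma-voom. Ggcx, the carboxylase, changed by 0.09 ± 0.13, and the vitamin K reductases Vkorc1 and Vkorc1l1 by -0.15 ± 0.09 and -0.18 ± 0.10 (SE, log2 scale). The locus of Vkorc1 also lists Gm21974 and Prss53.

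Of 11 genes for shedding and signalling of the receptor kinases, 2 rose and 2 fell, with a median of 0.07. Adam10, a protease that cleaves AXL, rose by 0.32 ± 0.11, but this call was lost in 8 of the 10 fits that left out 1 sample, all but those without vehicle replicate 3 or JHU083 replicate 3. Pik3r1, a regulatory subunit of phosphoinositide 3-kinase, rose by 0.47 ± 0.15 and lost its call without vehicle replicate 1 or 5 or JHU083 replicate 1, 4 or 5. Socs1, a suppressor of cytokine signalling, fell from 18.3 ± 2.31 to 7.17 ± 1.91 CPM (SD, n = 5), a change of -1.35 ± 0.17. Ptk2, the focal adhesion kinase, had -1.19 ± 0.33. Ptk2 is also expressed in epithelium and fibroblasts, whose markers were lower in JHU083, and their part was not tested.

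Transcription factors linked to efferocytosis genes had the highest list median, 0.45, and of 10 tested 5 rose and 0 fell with edgeR, DESeq2 or limma-voom (1 was lower in edgeR at an unadjusted p under 0.05). With library size scaling, limma-voom with sample weights, or without JHU083 replicate 2, 1 was called lower. Klf4 rose from 88.2 ± 24.2 to 241 ± 49.98 CPM (SD, n = 5), or by 1.45 ± 0.18 on the log2 scale. Klf2 and Rxra, the partner of liver X receptors and PPARs, rose by 0.59 ± 0.09 and 0.58 ± 0.08. The liver X receptor genes Nr1h3 (0.04) and Nr1h2 (-0.03) were not called.

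Of 17 engulfment genes 5 rose (8 without JHU083 replicate 3) and 2 fell, with a median of 0.05. Crk, an adaptor upstream of Rac, rose by 0.49 ± 0.09, Abi1, a subunit of the WAVE complex, by 0.43 ± 0.06, and Ano6, a lipid scramblase, by 0.30 ± 0.08. Nckap1, another WAVE subunit, had -0.73 ± 0.27 and kept its call in only 2 of the 10 fits without 1 sample (those without vehicle replicate 1 or 5). Rhog, a small GTPase, had -0.28 ± 0.10 and kept it in 4 (without vehicle replicate 2 or 3 or JHU083 replicate 1 or 3). The epithelial marker sum was also lower in every JHU083 sample, and its part in the Nckap1 difference was not tested. Of 19 genes for phagosome maturation 7 rose and 1 fell, with a median of 0.24. Rab5a, of the early phagosome, rose by 0.52 ± 0.09, and the lysosomal membrane proteins Lamp2 and Lamp1 rose by 0.50 ± 0.07 and 0.39 ± 0.09. Ccz1, part of the exchange factor for RAB7, fell by 0.30 (SE 0.07).

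The 11 genes for handling ingested lipid and metabolites divided evenly, with 4 up and 4 down and a median of 0.07. Those that rose most export or move cholesterol. Abca1 rose from 355 ± 68.2 to 721 ± 162 CPM (SD, n = 5), or 1.02 ± 0.16 on the log2 scale, Abcg1 by 0.88 ± 0.08 and Npc1 by 0.81 ± 0.10. Odc1 (ornithine decarboxylase), the lactate transporter Slc16a1 and the glucose transporter Slc2a1 fell by 0.55, 0.47 and 0.39 on the log2 scale (SE 0.13, 0.10 and 0.09).

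Receptors and ligands that restrain engulfment showed 2 up and 1 down of 8, with a median of 0.09. Lilrb4, at a locus listed as Lilr4b and Lilrb4a, rose by 0.32 ± 0.08 and Sirpa, the receptor for CD47, by 0.23 ± 0.07. Pilra fell by 0.61 (SE 0.13). Among 8 receptors for signals that attract phagocytes 3 rose and 2 fell, with a median of 0.18. S1pr1, a receptor for sphingosine-1-phosphate, rose by 1.41 ± 0.18 and S1pr2 fell by 0.39 (SE 0.10). The fractalkine receptor gene Cx3cr1 rose from 335 ± 24.1 to 540.1 ± 122 CPM (SD, n = 5), or 0.69 ± 0.13, and the nucleotide receptor gene P2ry2 by 0.35 ± 0.10. Fpr2, a formyl peptide receptor whose locus also lists Fpr3, had -1.03 ± 0.29. Scaling by library size alone ended the calls of Adam10, Pik3r1, Ano6, Sirpa (0.15) and P2ry2 (0.27).

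**Figure D4:**
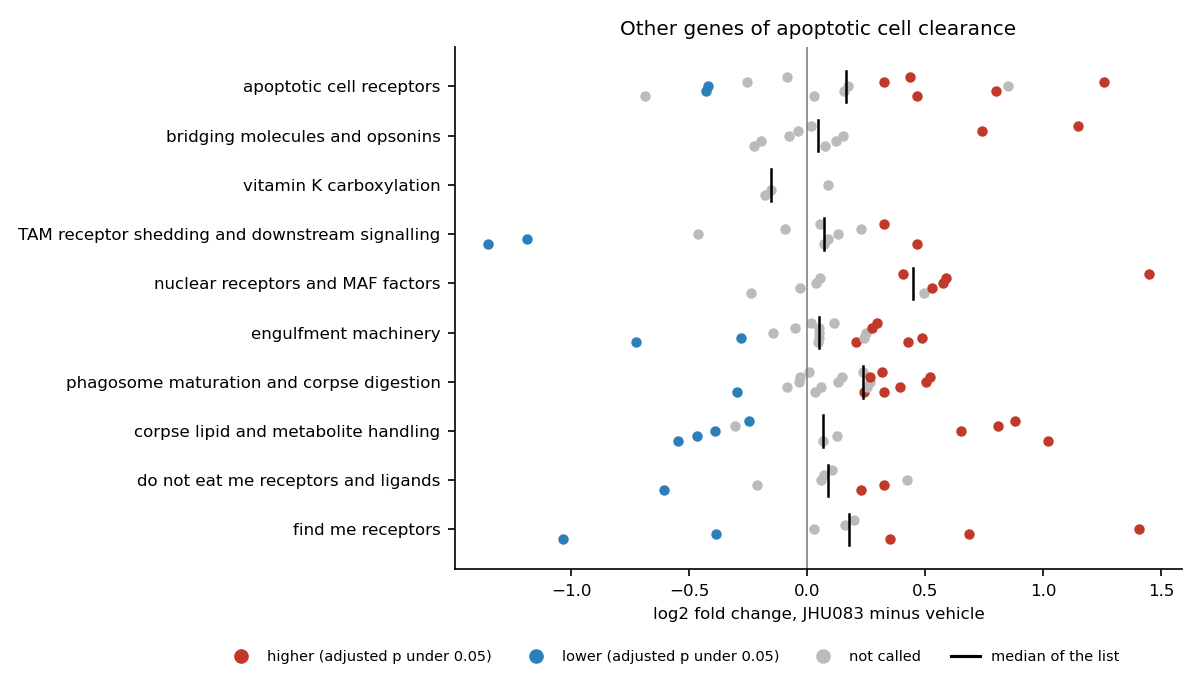
Log2 fold change, JHU083 minus vehicle, of every tested gene in the 10 lists of apoptotic cell clearance, with red points higher and blue points lower at an adjusted p under 0.05, grey points not called and a black bar at the median of each list. The transcription factor list has the highest median (0.45) and no called decrease, and the lipid handling list has 4 genes called in each direction.

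Genes whose pattern over the 10 samples was most like that of Mertk and of Axl were found by the root mean square distance between gene-centred log2 CPM, among loci with an average log2 CPM of at least 4. For Mertk these were Tbc1d4, a Rab GTPase activator (distance 0.0712, log2 fold change 0.94), Adgre5, whose locus also lists Mir1668 (0.0907, 0.87), and Gda, guanine deaminase (0.0938, 0.97). For Axl they were Lpcat2, an enzyme of phospholipid remodelling (0.0668, 0.30), Fmnl3, a formin (0.0801, 0.42), and St3gal3, a sialyltransferase (0.0890, 0.24), of which St3gal3 was not called (edgeR adjusted p = 0.126). Lpcat2 lost its call without vehicle replicate 2 or JHU083 replicate 1, and with library size scaling. In the samples with the ribosomal loci above 0, Lpcat2 (0.16) and Fmnl3 (0.28) were not called.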

How the data were processed

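RNA of sorted macrophages was sequenced in 5 vehicle and 5 JHU083 samples, as poly(A) paired-end libraries per the labels' protocols. The submitters' processing notes name bcl2fastq 2.17.1.14, FastQC 0.11.2, TopHat2 2.1.1 and build GRCm38; the counting program and annotation are not given in the sources used here. One column is named as raw counts per the file headers; the values the authors deposited in it are not whole, and its unit was set to expected counts. They were whole multiples of a step of 0.888 to 1.17 per sample. Division by it gave whole numbers, within 0.02, for 99.87% to 99.96% of values, which were rounded and taken as fragment counts. The second deposited column is headed as normalized and was taken from its values to be FPKM; it was used for levels and ratios. Of the loci, 1060 list more than 1 symbol (12.7% of fragments).

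Loci were filtered with filterByExpr, scaled with TMM and tested in R 4.3.3 with edgeR 4.0.16 (quasi-likelihood F-test), with Benjamini-Hochberg adjustment at 0.05 over all tested loci. Adjusted p-values with no other tool named are from edgeR. The SE is the absolute log2 fold change divided by the square root of F, and a prior count of 2 entered log2 CPM. The fit was tested on simulated data. Gene positions follow GENCODE M21 (GRCm38) and promoters RefSeq (GRCm38.p6), where all 10 genes matched by symbol; proteins were not used here.

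The genes, lists and tests were chosen with earlier results of these data known. Of the listed genes, 2 are not reported here and were left out of the list counts and sums. Named genes are the 10 genes, of each list up to 3 called genes per direction with the largest change, the vitamin K list, the macrophage markers, and the 3 loci nearest to Mertk and to Axl. The alternatives comprised limma-voom (limma 3.58.1), DESeq2 1.42.0, other scalings and filters, the deposited values rounded, loci with 1 symbol, a replicate block, the 2 sets of samples by the ribosomal loci, and leaving out each sample. For figures, Python 3.11.15 and matplotlib 3.10.9 were used.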

Additional observations from a re-analysis of the deposited data

Results flagged for a closer look

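In 3 of the 126 groups examined (63 named genes in 2 groups of 5 samples) 1 sample stood far from the other 4, with a gap above 0.71 of the whole range. Chance flags about 1 group in 20, or 6.3 of 126. Tyro3 in vehicle replicate 2 was at 1.28 log2 CPM, beside 0.70 to 0.84 in the other 4 (gap 0.758 of the range). Adam10 in JHU083 replicate 3 was at 7.52, beside 7.98 to 8.07 (0.839). Abca1 in JHU083 replicate 3 was at 8.79, beside 9.47 to 9.68 (0.760).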

How the results depend on the processing

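Over the 24 alternatives Mertk (0.84 to 1.04), Gas6 (0.66 to 0.79), Pros1 (1.00 to 1.22) and Cd36 (1.28 to 1.77) kept direction and call in every one. Stab1 (0.36 to 0.51) lost its call only within the 2 sets of samples by the ribosomal loci. Axl ranged from 0.14 to 0.49 and Tyro3 from -0.97 to -0.72. Direction reversed for Mfge8 without JHU083 replicate 1 (0.025; -0.17 to 0.025 over the fits without 1 sample), for Timd4 (0.36), Ggcx (-0.011) and Fcgr1 (0.0027) in the samples with the ribosomal loci at 0, and for Itgam with library size scaling (-0.048) and in the samples above 0 (-0.059); the causes were not tested. Of 240 values for the 10 genes 220 kept their side of the threshold, 16 lost it, 2 gained it and 2 reversed, and for 53 other named genes 1169 of 1267 kept it. Of 480 counts over the gene lists 416 stayed within 1.5 times. Loci called higher numbered 532 in the samples at 0 and 1274 in those above 0, and loci called lower 586 in the samples at 0, with fewer samples tested. The number of the 10 genes called lower was 0 with no filter and in the samples at 0. In the samples above 0 it was 1, Timd4 and not Tyro3. Leaving out 1 sample gave 1823 to 2895 loci higher, 1899 to 2929 lower, 5 to 7 of the 10 genes higher and 0 to 1 lower, with 0 lower without vehicle replicate 2 or JHU083 replicate 1 or 5. The replicate block left 1612 loci higher and 1757 lower, among them 5 and 1 of the 10 genes; Axl (0.29, edgeR adjusted p = 0.0599), Lrp1, Sirpa, Adam10, Pik3r1, Rhog, Nckap1 and Aif1 lost their calls (edgeR adjusted p = 0.0530 to 0.0945 for the last 7). Same-numbered samples did not deviate together (correlations -0.61 to -0.18). However, same-numbered samples always differed in whether the ribosomal loci were at 0. The correlations therefore cannot decide whether the numbers pair the samples. With only loci that list 1 symbol, Vkorc1, Lilrb4, Fpr2, Itgam and Adgre5 had no value. Of the 10 genes, Tyro3 and Timd4 rested on the fewest fragments (9 to 30 and 22 to 61 per sample).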

Other observations

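Stab2, the paralogue of Stab1 and a phosphatidylserine receptor best known from sinusoidal endothelium, did not pass the filter on low counts and was singled out after its values were seen. It had 1, 0, 0, 3 and 0 fragments in vehicle replicates 1 to 5 and 7, 20, 16, 21 and 25 in JHU083 replicates 1 to 5. The groups did not overlap, and the totals were 4 and 89 fragments. In the fit with no filter on low counts the edgeR adjusted p was 8.7e-07. Of 4 tested endothelial markers Pecam1 was lower in JHU083 and Cdh5, Kdr and Vwf were not called, and the part of endothelium in the Stab2 difference was not tested.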
